A study of Mus musculus with 3 samples.

Results

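The cells described here are the leukocytes of developing mouse back skin that carried little or no complement C1q RNA, the mark of skin macrophages. A cell was a member when at least 3 of 6 genes that most leukocytes express (Ptprc, Coro1a, Laptm5, Cd52, Cd53 and Rac2) were above 0, at most 1 of the 3 C1q genes (C1qa, C1qb, C1qc) was above 0, and no RNA of the epidermal gene Trp63 was seen. The members were thus selected on the measured RNA of these genes. The rule found 271 of 16235 cells, of which 162 came from the embryonic stage E13.5, 88 from the later stage E16.5 and 21 from the day of birth (P0). Members with any Cpa3 RNA, called Cpa3 cells below, are given apart from the remaining members, called other leukocytes. Cpa3 cells numbered 73, 48 and 0 in stage order, and other leukocytes 89, 40 and 21. These 11 genes were counted in no comparison below, and their levels are descriptions.

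Mast cells are tissue leukocytes that store proteases, histamine and the anionic proteoglycan serglycin in secretory granules and release them when surface receptors are engaged. They arise from haematopoietic progenitors, reach the skin before birth and mature there under the cytokine that binds the receptor Kit. Basophils share part of this granule and receptor programme and mark themselves with the protease Mcpt8. The leukocytes of fetal and newborn skin also include monocytes, neutrophils, dendritic cells, which present antigen on MHC class II, and lymphocytes such as gamma delta T cells, which settle in the epidermis around birth.

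All libraries came from back skin of male C57BL/6 mice with no genetic change or treatment, pooled within a stage. Each stage gave 1 library, made with the droplet-based 3' chemistry of 10x Genomics, version 2, in which each captured transcript is counted once by its unique molecular identifier (UMI). Embryonic skin was digested with trypsin and EDTA and newborn skin with collagenase IV, so stage, library and digestion cannot be told apart. Without a replicate library no test was run, no difference has a replicate check, and every interval below is a 95% interval for counting error only. As deposited, the libraries held 5962, 5208 and 5065 cells with medians of 7067, 11021 and 6797 UMIs. Every cell met the minimum of genes that the study set, yet the table holds more cells than the study describes, and shares of a library below are shares of the table's cells. Member cells had medians of 6834, 8390 and 7201 UMIs. Between 32 and 44 cell barcodes were shared by each pair of libraries. In these whole-tissue suspensions fewer cells of a type and a poorer release of that type in digestion cannot be told apart, nor can fewer cells with a transcript and less RNA per cell at low depth.

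The granule genes Cpa3, Cma1 and Hdc carry most of the results on Cpa3 cells, and the transcription factor gene Gata2 was measured in the same cells, so the 250 bases before the RefSeq start of each are shown, read 5′ to 3′ along the gene in the build GRCm38.p6. All 3 genes lie on the minus strand. Capitals mark the letters GATAA, a form of the site bound by GATA factors, or their complement TTATC, and other forms were not searched.
Cpa3, chr3:20242182-20242431: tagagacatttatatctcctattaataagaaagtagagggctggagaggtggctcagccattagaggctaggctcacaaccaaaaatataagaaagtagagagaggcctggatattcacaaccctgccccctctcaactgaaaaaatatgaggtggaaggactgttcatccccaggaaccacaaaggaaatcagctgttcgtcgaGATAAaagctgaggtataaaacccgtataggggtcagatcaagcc
Cma1, chr14:55944676-55944925: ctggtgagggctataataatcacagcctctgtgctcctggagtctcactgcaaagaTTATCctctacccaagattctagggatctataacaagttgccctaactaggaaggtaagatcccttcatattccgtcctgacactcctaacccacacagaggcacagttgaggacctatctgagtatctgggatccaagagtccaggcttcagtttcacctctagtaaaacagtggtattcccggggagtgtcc
Hdc, chr2:126618679-126618928: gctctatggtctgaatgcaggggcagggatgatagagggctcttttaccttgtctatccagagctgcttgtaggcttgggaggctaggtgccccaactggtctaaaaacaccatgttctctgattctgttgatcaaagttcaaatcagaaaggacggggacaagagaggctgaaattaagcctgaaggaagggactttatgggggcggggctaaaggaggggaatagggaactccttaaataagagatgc
The Cpa3 window held 1 match, on the strand of the gene and 45 bases before the start. The Cma1 window held 1 match on the opposite strand, 194 bases before the start, and the Hdc window held none. The same letters on either strand were found in the 250 bases before 7418 of 32851 RefSeq starts (22.6%), so the matches are a description of these windows and no more.

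Members made up 2.72% of the E13.5 library (exact binomial interval 2.32 to 3.16%), then 1.69% (1.36 to 2.08%) and, in newborn skin, 0.415% (0.257 to 0.633%). Cpa3 cells were 1.22% of all cells at E13.5 (0.961 to 1.54%) and 0.922% at E16.5 (0.680 to 1.22%), and those intervals overlapped. Among members they were 45.1% at E13.5 (37.2 to 53.1%) and 54.5% at E16.5 (43.6 to 65.2%). At P0 none of the 21 members held Cpa3, which leaves an exact interval from 0 to 16.1% of members and from 0 to 0.0728% of the library. Macrophages in the same libraries, taken as cells with at least 3 of the 6 leukocyte genes, at least 2 C1q genes and no Trp63, were 4.24%, 1.88% and 0.731% of cells. Macrophages and non-macrophage leukocytes thus both took a smaller share of the library at each later stage.

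**Figure D1:**
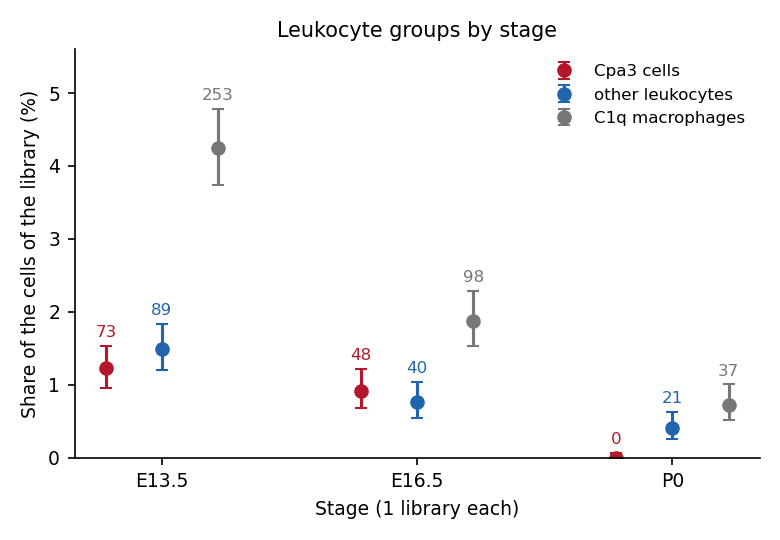
Share of the cells of each library (%, y axis) that were Cpa3 cells, other leukocytes or C1q macrophages at E13.5, E16.5 and P0 (x axis), with exact binomial 95% intervals as bars and cell numbers above them. Cpa3 cells held 1.22% and 0.922% of cells before birth and 0 of 5065 cells at P0.

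Cells on both sides of the rule's thresholds were counted. Among cells with at most 1 C1q gene and no Trp63, 71 cells at E13.5 had exactly 3 leukocyte genes and were taken, while 101 had exactly 2 and were not. At E16.5 these numbers were 9 and 56, and at P0 they were 0 and 4. Among cells with at least 3 leukocyte genes and no Trp63, exactly 1 C1q gene was seen in 41, 9 and 2 cells, which were kept, and exactly 2 in 44, 8 and 1 cells, which were not. Trp63 was seen in 5, 21 and 7 cells with at least 3 leukocyte genes, and these were not taken.

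The 6 leukocyte genes chose the members, so their levels are given without a comparison. Levels are given as UMIs of a gene per 1000000 UMIs of the group (CPM). Ptprc, the leukocyte phosphatase CD45, stood at 47.7 CPM in Cpa3 cells at E13.5 and 65.7 CPM at E16.5, and at 92.3, 213 and 157 CPM in other leukocytes from E13.5 to P0. Rac2, a GTPase of blood cells, stood at 573 and 1151 CPM in Cpa3 cells against 334, 742 and 470 CPM in other leukocytes. Cd52, a small surface glycoprotein, stood at 213 and 716 CPM in Cpa3 cells against 728, 2150 and 2450 CPM. Only 27.4% and 33.3% of Cpa3 cells held a Ptprc UMI, so most of them met the rule through the other 5 genes.

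Cpa3, mast cell carboxypeptidase A (chromosome 3, 20215620 to 20242181, minus strand), gave 2232 UMIs or 3330 CPM in the Cpa3 cells of E13.5 and 3593 UMIs or 8139 CPM at E16.5. Its UMIs per Cpa3 cell had a median of 20 and a highest value of 209 at E13.5, and a median of 67.5 and a highest value of 230 at E16.5. Cpa3 UMIs were also seen in cells without leukocyte RNA, and whether free RNA in the droplets carried them was not tested. Among epidermal cells with Trp63 and none of the 6 leukocyte genes, which should not make Cpa3, 3.33%, 25.6% and 4.27% held a UMI from the first stage to the last, at levels of 4.48, 20.4 and 3.29 CPM and median depths of 9875, 13093 and 9992 UMIs. A lone Cpa3 UMI is therefore weak evidence at E16.5, and at P0 no cell of the library held more than 3.

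Cpa3 cells were for this reason also split by amount. At E13.5, 58 of 73 held 5 or more Cpa3 UMIs, and 49 of those 58 held at least 3 of 20 mast cell marker genes, with a median of 5 markers and a range from 1 to 11. The 15 cells with 1 to 4 Cpa3 UMIs had a median of 3 markers and 41.7 CPM of Cma1 against 1852 CPM in the 58. At E16.5, 42 of 48 held 5 or more, and all 42 held at least 3 markers, with a median of 10 and a range from 4 to 16. The 6 remaining cells had a median of 1 marker, 14197 CPM of the myeloid lysozyme gene Lyz2 against 12.9 CPM in the 42, and 1188 CPM of Cd74 against 5.16 CPM. At least 3 markers were also held by 8 of the 15 low cells at E13.5. Among macrophages with Cpa3, 13 of 33 at E13.5 and 9 of 22 at E16.5 held as many, with a median of 2 at each stage. That cut alone therefore does not set mast cells apart. The mast cell label was borne out for most cells with 5 or more Cpa3 UMIs at E16.5, and less clearly at E13.5. Even so, 3 of the 42 at E16.5 carried the basophil protease Mcpt8 and no Kit or Tpsb2, as described below. The label was not borne out for the 6 low cells at E16.5. Of these, 5 held fewer than 3 mast markers, and the remaining 1 held 63 Mcpt8 UMIs and no Kit, Tpsb2 or Cma1. At P0 the label has no cell to apply to. The comparisons below use every Cpa3 cell unless stated.

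A gene is called past the fold when the whole exact interval of its CPM ratio lay above 2 or below 0.5, among genes with at least 30 UMIs in the 2 groups together. Against other leukocytes of the same library, Cpa3 cells at E13.5 had 76 of 5575 genes past the fold higher (1.36%) and 95 lower (1.7%). At E16.5 they had 121 of 3771 higher (3.21%) and 218 lower (5.78%). Where a group held no UMI, the ratio is a lower bound set by 3 UMIs. The direction of the marker lists follows in part from splitting members by Cpa3, and the counts are read as descriptions of these libraries. A gene with almost no UMIs in 1 group met the minimum of 30 only through the other group, which fixed its direction beforehand. Counts of list genes that include such genes are therefore no support for a cell type.

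The granule protease genes separated the groups most. Of 14 genes listed, 5 had enough UMIs at each stage, and all 5 were past the fold higher in Cpa3 cells at both. At E13.5 Cma1, Tpsb2, Tpsg1 and Prss34 had 0 UMIs in other leukocytes and met the UMI minimum through Cpa3 cells alone. Their direction was thus fixed by that minimum. Cma1, the mast cell chymase (chromosome 14, 55941451 to 55944675), gave 1068 UMIs or 1594 CPM in Cpa3 cells at E13.5 and 0 UMIs in other leukocytes, at least 362-fold higher. At E16.5 it gave 12750 CPM against 37.6 CPM, a ratio of 339 (205 to 606). The 13 other leukocytes with Cma1 at E16.5 (32.5%) are at the background, since 39.3% of Trp63 cells held it at 35.4 CPM. Tpsb2, a tryptase of the chromosome 17 cluster, stood at 249 CPM against 0 UMIs at E13.5, at least 56.7-fold higher, and at 3158 CPM at E16.5 with a ratio of 252 (108 to 777). The membrane tryptase Tpsg1 was at least 47.2-fold higher at E13.5 and 286-fold higher at E16.5, where the other leukocytes held 1 UMI of it. Prss34, a tryptase of mast cells and basophils, was at least 24.1-fold and at least 45.8-fold higher.

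Other proteases of the family were low or in few cells. Mcpt4, the chymase of connective tissue mast cells, gave 0 UMIs at E13.5 and 29 UMIs in 6 cells at E16.5. Tpsab1, which shares much of its sequence with Tpsb2, stood at 2.98 and 34.0 CPM, Cma2 at 13.4 and 49.8 CPM, and Ctsg, cathepsin G, at 0 and 45.3 CPM in Cpa3 cells. Reads from near-identical members of these clusters may be split or lost in counting, so the levels of Tpsb2, Tpsab1 and the Mcpt genes are uncertain. Summed over the list, Cpa3 cells held 5579 CPM (5401 to 5761) at E13.5 and 25904 CPM (25431 to 26383) at E16.5. Other leukocytes held 2.93, 55.1 and 0 CPM and Trp63 cells 6.16, 65.9 and 12.4 CPM from E13.5 to P0, so in other leukocytes the proteases were no higher than in cells that should lack them. Macrophages held 200 and 322 CPM at the embryonic stages.

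Genes that pack the granule were less exclusive. Srgn, the serglycin core protein, gave 723 UMIs against 62 at E13.5, a ratio of 11.9 (9.15 to 15.6), and 659 against 142 at E16.5, a ratio of 4.19 (3.49 to 5.06). It was seen in 90.4% and 97.9% of Cpa3 cells and also in 97.5% of other leukocytes at E16.5 and all of them at P0. Hs3st1, a heparan sulfate sulfotransferase, gave 74 against 1 UMI and 97 against 2, and Rab27b, a GTPase of granule release, gave 48 against 0 and 131 against 1. Ndst2, which starts the sulfation of heparin, was past the fold at E16.5 with 88 against 5 UMIs and a ratio of 15.9 (6.56 to 50.2). The granule membrane protein Cd63 had a ratio of 1.74 (1.53 to 1.98) at E13.5, which is not past the fold, and 3.68 (3 to 4.55) at E16.5. Of 14 genes listed, 2 of 6 looked at were past the fold higher at E13.5 and 5 of 8 at E16.5.

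Genes for histamine and other monoamines followed the proteases. Hdc, histidine decarboxylase, which makes histamine, gave 345 UMIs against 1 at E13.5, a ratio of 351 (62.6 to 13912), and 1914 against 4 at E16.5, a ratio of 432 (169 to 1589). Maob, which breaks down monoamines, gave 47 against 2 UMIs at E13.5 and 140 against 0 at E16.5, and Slc6a4, the serotonin transporter, gave 50 against 0 at E16.5. The vesicle transporter Slc18a2 stood at 32.8 and 52.1 CPM in Cpa3 cells, Tph1, which starts serotonin synthesis, at 8.95 and 52.1 CPM, and Ddc at 26.9 and 49.8 CPM. All 2 genes looked at in this list at E13.5 and all 3 at E16.5 were past the fold higher, of 7 listed. These counts carry the limit given above for genes with almost no UMIs in 1 group.

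Receptor genes of the mast lineage were present at both stages. Kit, the stem cell factor receptor, gave 109 UMIs against 6 at E13.5, a ratio of 18.5 (8.23 to 51.5), and 159 against 3 at E16.5, a ratio of 47.9 (16.1 to 235). Il1rl1, the interleukin 33 receptor, gave 119 against 4 and 114 against 3 UMIs, with ratios of 30.3 and 34.3. Ms4a2, the beta chain of the IgE receptor, gave 36 against 1 and 47 against 0 UMIs, and Cd200r3, an activating receptor of mast cells and basophils, gave 38 against 1 and 91 against 0. Fcer1a, the IgE-binding chain, was seen in 1 cell at E13.5 and 4 cells at E16.5, at 5.97 and 22.7 CPM. The shared signalling chain Fcer1g did not separate the groups at E13.5, with a ratio of 1.08 (0.923 to 1.26). Mrgprb2, the mast cell receptor for cationic peptides, was seen in 0 cells at E13.5 and 3 cells at E16.5.

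Among transcription factors, Gata2, which mast cells need, gave 235 UMIs against 3 at E13.5, a ratio of 79.7 (27 to 389), and 274 against 2 at E16.5, a ratio of 124 (34 to 1030). Myb, a factor of progenitors, gave 37 against 2 and 39 against 0 UMIs. Mitf, another mast cell factor, stood at 31.3 and 56.6 CPM in Cpa3 cells and Gata1 at 37.3 and 47.6 CPM. Spi1, the PU.1 factor of myeloid cells, was 4.23-fold lower (2.88 to 6.38) at E13.5 and 3.63-fold lower (2.71 to 4.91) at E16.5 than in other leukocytes, and Irf8, a factor of monocytes and dendritic cells, was 19.5-fold lower at E16.5, with 3 against 53 UMIs. Of 34 factors listed, 6 of 16 looked at were past the fold higher and 2 lower at E13.5, and 2 of 18 higher and 4 lower at E16.5.

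Several further genes stood high in Cpa3 cells at both stages. Cyp11a1, the enzyme that starts steroid synthesis, gave 47 against 0 UMIs at E13.5 and 170 against 0 at E16.5. Smpx gave 81 against 0 and 250 against 1, and Slc45a3 gave 88 against 2 and 144 against 0. Ifitm1 is given for E13.5, where it was 12.7-fold higher (10.4 to 15.8), with 22.4% of its UMIs in 1 cell. At E16.5 it stood at 3728 CPM in the cluster that joined Mcpt8 and lymphoid cells, described below, and at 165 CPM in the remaining members. The lowest genes were those of antigen presentation and of other myeloid cells. Cd74, the invariant chain of MHC class II, was 34.9-fold lower (19.3 to 70.5) at E13.5 and 29-fold lower (22.7 to 37.7) at E16.5, and Lyz2 was 107-fold lower (49 to 293) and 5.55-fold lower (5.13 to 6). Ccr2, a chemokine receptor of monocytes, was 8.47-fold lower (5.37 to 14) and 5.6-fold lower (4.11 to 7.77). Camp, S100a9 and BC100530, which also stood among the lowest at E13.5, came wholly from 1 other leukocyte.

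**Figure D2:**
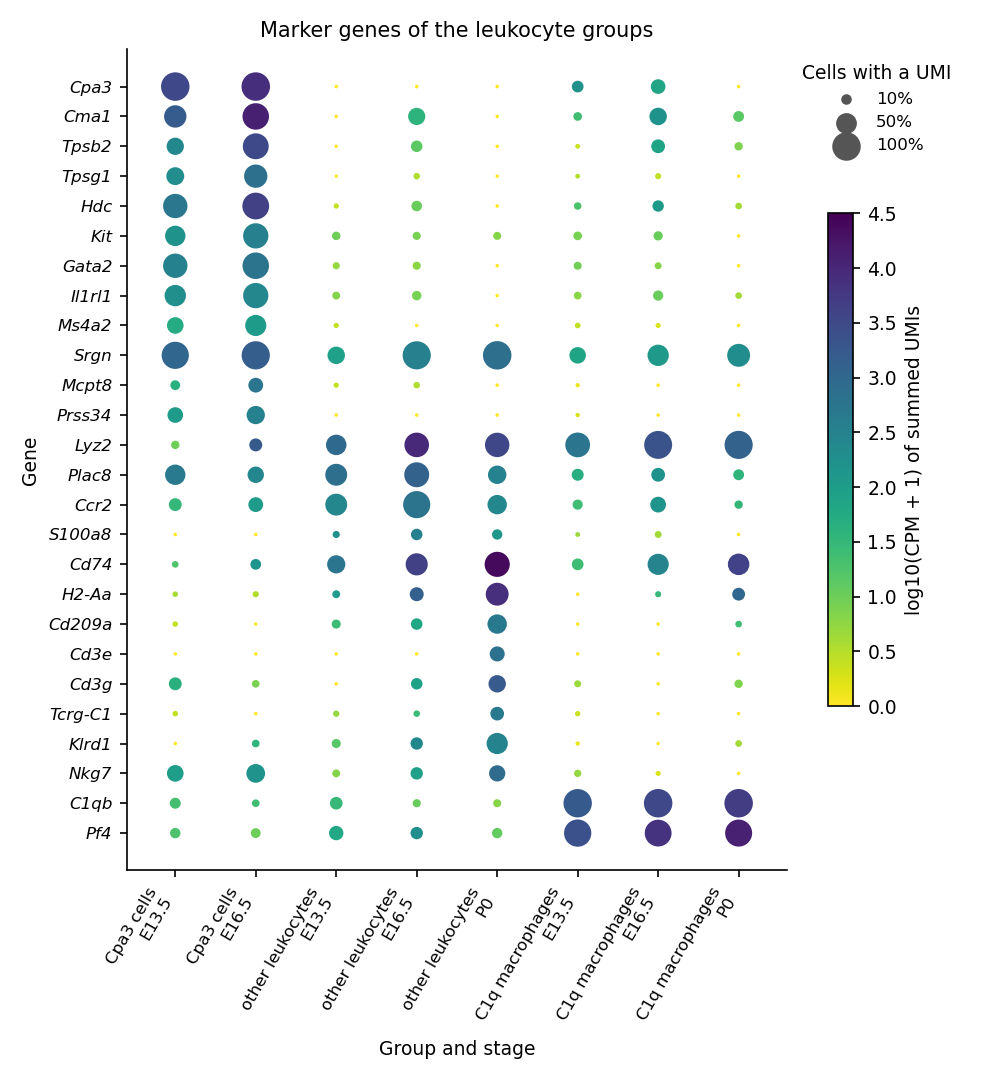
Level of 26 marker genes (rows) in 8 groups of cells (columns: Cpa3 cells, other leukocytes and C1q macrophages by stage), where dot size is the share of cells with a UMI (%) and colour is log10 of CPM + 1. Cma1 stood at 1594 and 12750 CPM in Cpa3 cells, while Cd74 and H2-Aa stood higher in other leukocytes than in the remaining groups of the same stage. Lyz2 was not particular to other leukocytes, of which 11 of 89, 24 of 40 and 8 of 21 held 10 or more UMIs by stage. Among macrophages 44 of 253, 52 of 98 and 14 of 37 did.

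Over the marker lists, Cpa3 cells had 9 of 9 mast genes looked at past the fold higher at E13.5 and 9 of 10 at E16.5, with median log2 ratios of 5.27 and 5.63 against -0.06 and 0.02 over all genes looked at. The list holds 20 genes, and the remaining ones had too few UMIs. Most mast genes looked at had few or no UMIs in other leukocytes, so the UMI minimum limits these counts as stated above. Of 8 basophil genes, all 4 looked at were higher at E13.5 and 4 of 5 at E16.5. All MHC class II genes looked at were lower, 5 of 5 and 6 of 6, as were 3 of 5 and 5 of 7 macrophage genes and 4 of 5 and 6 of 6 monocyte genes. At E13.5 the UMIs of H2-Aa, H2-Ab1 and H2-Eb1 rested on few other leukocytes, as given below. Erythroid genes were not past the fold at E13.5 (0 of 8), but 4 of 4 were higher at E16.5. These were the haemoglobin genes Hba-a1, Hba-a2, Hbb-bs and Hbb-bt, and 1 Cpa3 cell held between 89.6% and 93.3% of the UMIs of each. In the 42 cells with 5 or more Cpa3 UMIs, Hbb-bs stood at 568 CPM and Hba-a1 at 188 CPM, below the 1378 and 494 CPM of other leukocytes, so the higher direction rests on cells outside these 42.

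Cells differed widely within each stage. Cma1 was seen in 43 of 73 Cpa3 cells at E13.5 (58.9%), with a median of 1 UMI and a highest value of 196, and in 41 of 48 at E16.5 (85.4%), with a median of 113 and a highest value of 498. Hdc was seen in 71.2% and 87.5% of cells with medians of 1 and 32.5 UMIs, and Tpsb2 in 32.9% and 81.2%. Since the later cells were deeper, each cell was also thinned to 3500 UMIs. The share with Cma1 was then 45.2% and 83.3%, with Hdc 53.4% and 87.5%, with Tpsb2 21.9% and 79.2%, with Kit 26% and 54.2%, and with Gata2 57.5% and 81.2%. The difference between the libraries in these shares was thus also there at equal depth. Among Trp63 cells, Gata2 was seen in at most 2.21% and Kit in at most 6% of cells of a stage, below every share in Cpa3 cells. For Cma1 the share of Trp63 cells at E16.5, given above, was far higher, and their summed protease level rose from E13.5 to E16.5. The shares with Cma1 are to be read with that background.

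**Figure D3:**
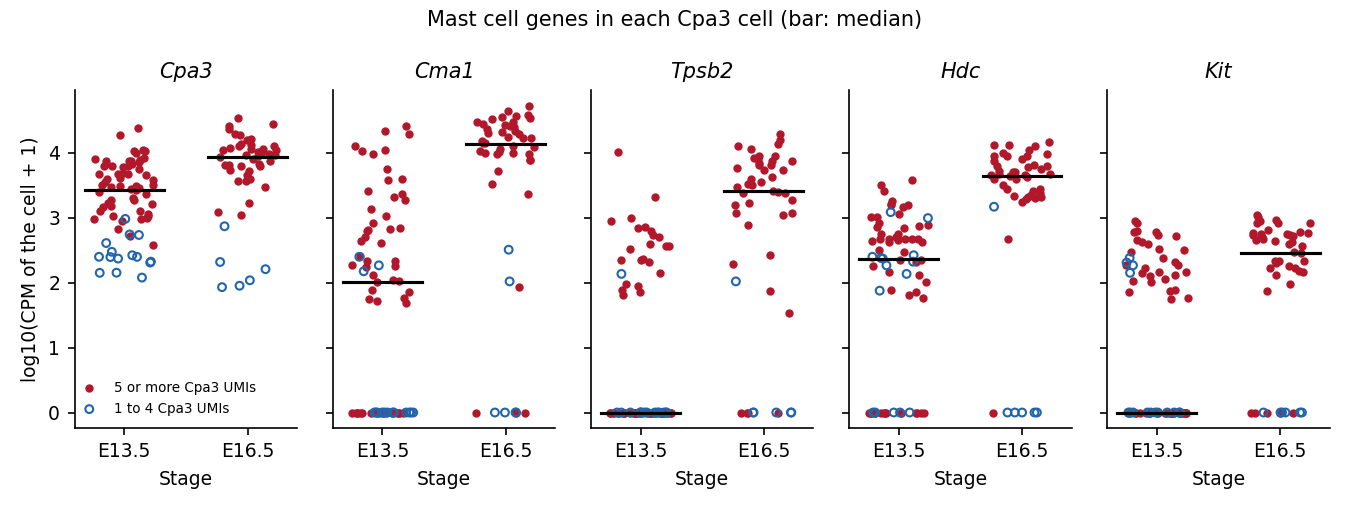
Level of Cpa3, Cma1, Tpsb2, Hdc and Kit in each Cpa3 cell (y axis, log10 of CPM of the cell + 1) at E13.5 and E16.5 (x axis), with a bar at the median. Filled points are cells with 5 or more Cpa3 UMIs and open points cells with 1 to 4; the E13.5 cells of Cma1 and Hdc spread from 0 upwards, while most E16.5 cells lie high.

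A few Cpa3 cells had a distinct pattern, and these were chosen after the values had been seen. Mcpt8, the basophil protease, reached 5 or more UMIs in 1 cell at E13.5 and 4 cells at E16.5, and in no cell of the other leukocytes or macrophages. The E13.5 cell held 23 Mcpt8, 16 Cpa3, 23 Hdc, 6 Gata2, 16 Cd200r3 and 248 Ifitm1 UMIs. The 4 later cells held 5, 45, 63 and 127 Mcpt8 UMIs, 30, 29, 4 and 13 Cpa3 UMIs, 20, 8, 8 and 24 Hdc UMIs, and 137, 82, 92 and 90 Ifitm1 UMIs. None of these 5 cells held Tpsb2 or Kit, and 1 of them held a lone Cma1 UMI, at a stage where most Cpa3 cells held many. All 5 held Hdc, Gata2 and Cd200r3, no Tpsb2 and at most 1 UMI of Cma1. Over all Cpa3 cells, Hdc was seen in 71.2% at E13.5 and 87.5% at E16.5, and Gata2 in 71.2% and 85.4%. Cd200r3 was seen in 17.8% and 70.8%, so most Cpa3 cells at E13.5 lacked it. The tryptase Prss34 was present in 4 of the 5, with 3 UMIs in the E13.5 cell and 18, 0, 34 and 13 UMIs in the later ones.

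**Figure D4:**
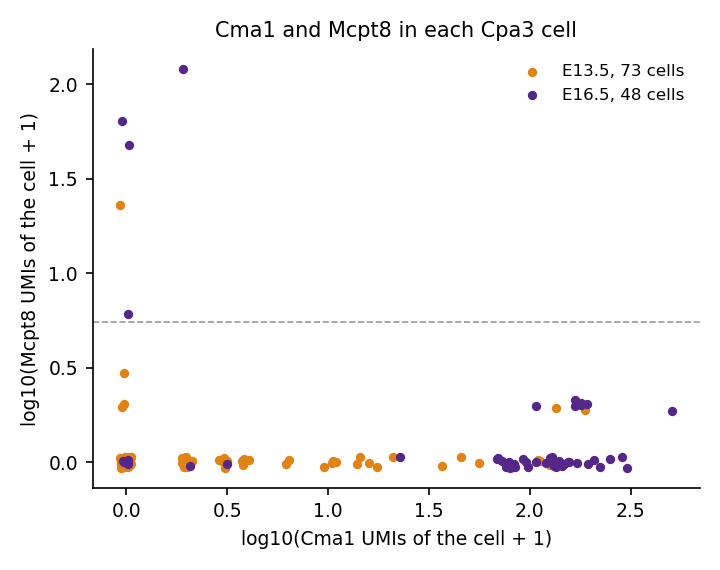
UMIs of Mcpt8 (y axis, log10 of UMIs + 1) against UMIs of Cma1 (x axis, log10 of UMIs + 1) in each Cpa3 cell of E13.5 (orange, 73 cells) and E16.5 (purple, 48 cells), with points spread slightly to show overlaps. The 5 cells above the dashed line hold 5 or more Mcpt8 UMIs and at most 1 Cma1 UMI.

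Cpa3 cells of E16.5 were then compared with those of E13.5. Of 4632 genes looked at, 92 were past the fold higher at E16.5 (1.99%) and 133 lower (2.87%), and these differences are between 2 libraries. Ranked by the interval bound, the first 6 were Lyz2, Gzma, Serpinb1a, S100a4, A530099J19Rik and Lgals7, of which Lyz2, Gzma and S100a4 rested on few cells, as given below. Genes of granule content were also among the higher ones. Cma1 was 8-fold higher (7.49 to 8.55), Tpsb2 12.7-fold (10.8 to 15), Hdc 8.42-fold (7.51 to 9.47), Tpsg1 3.45-fold (2.82 to 4.24) and Ndst2 10.3-fold (5.71 to 20.1). Serpinb1a, an inhibitor of serine proteases, rose from 64.2 to 1581 CPM, a ratio of 24.6 (18.1 to 34.4), and Slc6a4 gave 50 against 3 UMIs. Cyp11a1 was 5.49-fold (3.95 to 7.76), Maob 4.52-fold (3.23 to 6.43) and Rab27b 4.14-fold higher (2.96 to 5.89).

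Other mast lineage genes are given with their intervals, which were not compared with those above. The interval for Kit ran from 1.72 to 2.85 around a ratio of 2.21, that for Gata2 from 1.48 to 2.12 around 1.77, that for Il1rl1 from 1.11 to 1.9 around 1.45, and that for Srgn from 1.24 to 1.54 around 1.38. None of these 4 is past the fold, although each interval lies above 1. Cd200r3, by contrast, was past the fold at 3.64 (2.46 to 5.46). Of 12 mast genes looked at, 6 were past the fold higher, as were 5 of 7 proteases, 3 of 5 monoamine genes and 2 of 9 packaging genes, and none of these lists had a gene lower. Their median log2 ratios were 1.61, 1.89, 2.18 and 0.89 against -0.10 over all genes. Summed mast markers went from 3314 CPM (3177 to 3455) to 22610 CPM (22169 to 23059). Genes of S phase and of G2 and mitosis had none of 19 genes each past the fold, with summed levels of 1881 and 1955 CPM and of 2105 and 2064 CPM.

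Some of these differences rested on few cells. Mcpt8 was 12.9-fold higher at E16.5 (8.78 to 19.7), but without the 5 cells of 5 or more Mcpt8 UMIs the ratio was 1.93 (0.556 to 6.96), no longer past the fold. Prss34 moved from 3.25 (2.44 to 4.37) to 2.12 (1.53 to 2.96) without them and was also no longer past the fold. Lyz2, with 770 against 6 UMIs, had 5 against 1 UMI in cells with 5 or more Cpa3 UMIs, S100a4 had 3 against 0 in place of 44 against 0, and all 48 Gzma UMIs came from 1 cell. Cma1, Tpsb2 and Hdc kept ratios of 7.84, 12.4 and 8.91 in cells with 5 or more Cpa3 UMIs, and of 8.73, 13.8 and 9.54 without the Mcpt8 cells.

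RNA of other tissues also moved between these libraries. Hbb-y, the embryonic haemoglobin of primitive red cells, was 178-fold lower at E16.5 (99.3 to 357), and it was seen in every Cpa3 cell at E13.5 and in all Trp63 cells of that stage at 3084 CPM. Actc1, a muscle actin, gave 2 against 178 UMIs and Myog, a muscle factor, 2 against 110. The haemoglobin genes Hba-a1, Hba-a2, Hbb-bs and Hbb-bt were not past the fold over all Cpa3 cells, with a ratio of 1.08 for Hbb-bs, but all 4 were past it lower at E16.5 among cells with 5 or more Cpa3 UMIs, where the Hbb-bs ratio was 0.118. Over the muscle list of 6 genes, 5 had UMIs in Cpa3 cells at E13.5, at 528 CPM in sum and from 0 to 13676 CPM among cells, and 2 did at E16.5, at 9.06 CPM. Lgals7, a galectin of keratinocytes, gave 88 against 5 UMIs, beside keratinocyte markers at 210 and 401 CPM in Cpa3 cells and 2687 and 9944 CPM in Trp63 cells. Fos was 3.70-fold higher (3 to 4.58), and 6 of 14 genes of the dissociation response were past the fold higher, at 4840 and 7045 CPM in sum. Macrophages went from 3854 to 6654 CPM of the same list. The part of free RNA and of digestion in the stage differences was not tested.

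Cpa3 cells were also set against the macrophages of their own library, which share no cells with other leukocytes, while the Cpa3 cells are the same in both comparisons. At E13.5, 133 of 8313 genes were past the fold higher (1.6%) and 335 lower (4.03%), and at E16.5 173 of 6183 higher (2.8%) and 414 lower (6.7%). Cma1 was 68.1-fold higher (51.9 to 91) at E13.5 and 78.4-fold (68.1 to 90.7) at E16.5, Gata2 41.2-fold (26.1 to 68.7) and 110-fold (52.5 to 275), and Srgn 14.6-fold (12.3 to 17.3) and 13-fold (10.8 to 15.7). Mcpt8 at E16.5 gave 247 against 0 UMIs. Pf4, a chemokine of fetal macrophages, was 137-fold lower (78.4 to 265) and 765-fold lower (299 to 2810), and Mrc1, the mannose receptor, 98.6-fold and 465-fold lower. Eicosanoid genes were past the fold lower for 4 of 8 at each stage. Hpgds, the prostaglandin D2 synthase of haematopoietic cells, stood at 13.4 and 72.5 CPM in Cpa3 cells against 284 and 260 CPM in macrophages, and Ltc4s, which makes leukotriene C4, at 0 and 2.27 CPM against 73.2 and 134 CPM.

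The RNA of the other leukocytes differed between the libraries, and each library is described alone. Whether their composition changed with stage cannot be told apart from library and digestion. At E13.5, 35 of 89 cells held at least 3 monocyte markers, 28 held at least 3 macrophage markers, 6 held at least 3 dendritic cell markers, 2 held at least 3 neutrophil markers and 1 held at least 3 T cell markers. A cell may count in several lists, and most of the 89 fell in clusters led by genes of other tissues, as given below. Lyz2 stood at 960 CPM, Plac8, a gene of monocytes and neutrophils, at 736 CPM and Ccr2 at 265 CPM, each seen in between 43 and 50 cells. Prtn3, a granule protease of myeloid progenitors, was seen in 19 cells at 79.2 CPM. With cut-offs chosen after the values had been seen, 75 of the 89 cells held fewer than 10 UMIs of each of H2-Aa, Cd3g and Lyz2. The same held for 209 of 253 macrophages, so these cut-offs do not say how well a cell's type was defined.

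Some single cells of E13.5 stood out. One cell held 117 S100a8, 103 Camp and 26 Mpo UMIs, the granule and alarmin genes of neutrophils and their progenitors, and gave 94.4% of all S100a8 UMIs in the group. Of 3 cells with 10 or more H2-Aa UMIs, an MHC class II chain, the values were 42, 22 and 10, with 171, 64 and 54 UMIs of Cd74. H2-Aa was seen in 4 of 89 cells at this stage and in no Trp63 cell. Cd79a, a chain of the B cell receptor, gave 3 UMIs in 1 cell, and Prg2, the eosinophil major basic protein, gave none in any group of members. Cd207, the Langerhans cell lectin, was at 0 UMIs in the members of all stages.

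At E16.5 RNA of monocyte markers was widespread, in part beside RNA of macrophage markers. At least 3 monocyte markers were held by 29 of 40 other leukocytes, and Lyz2 stood at 9679 CPM, Plac8 at 1195 CPM, Ccr2 at 622 CPM and Ly6c2 at 238 CPM. In a cluster of 24 members given below, 4 of them Cpa3 cells, all 24 held at least 3 monocyte markers. Of these 24, 18 held at least 3 macrophage markers as well, so the monocyte markers do not set a type apart. With the same later-chosen cut-offs, 22 cells held 10 or more Lyz2 UMIs and fewer than 10 of H2-Aa, and 8 cells held 10 or more of H2-Aa, with values from 14 to 182. In 6 of these 8 cells Lyz2 gave 0 to 4 UMIs, H2-Aa 51 to 182 and Cd74 118 to 453, while the remaining 2 held 88 and 139 Lyz2 UMIs. Neutrophil RNA came from 2 cells with 96 and 40 S100a8 UMIs beside 138 and 122 of Lyz2.

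Lymphoid genes were first seen in number at E16.5. Klrd1, the CD94 receptor of natural killer cells, stood at 246 CPM in 6 of 40 cells, and Trbc2, a T cell receptor beta constant gene, at 173 CPM in 7 cells. Including 1 Cpa3 cell with a lone Cpa3 UMI, 5 members held 14 to 32 Klrd1 UMIs together with 2 to 17 Trbc2, 4 to 9 Nkg7 and 3 to 12 Ctsw UMIs, the latter 2 genes of cytotoxic cells. Their Cd3g UMIs were 10, 16, 2, 6 and 0. None of the 5 held Trdc, Tcrg-C1 or Cd3e. The CD3 chains were thus uneven in these cells, and no list puts them in a single class.

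At P0 the 21 members could be read cell by cell. A set of 5 cells held 38 to 97 UMIs of Cd3g, a chain of the T cell receptor complex, with 3 to 37 of Cd3e, 11 to 46 of Nkg7, 10 to 25 of Ctsw and 1 to 20 of Xcl1, a chemokine that attracts dendritic cells. In 4 of them the gamma delta receptor genes Trdc and Tcrg-C1 gave 5 to 14 and 10 to 32 UMIs. The remaining cell, with 4267 UMIs in all, held neither. A further 13 cells held 35 to 199 UMIs of H2-Aa and 205 to 488 of Cd74. Of these, 9 held 1 to 40 UMIs of Cd209a and 6 held 10 or more of Lyz2, up to 133. One of the 13 held all 30 Ccr7 UMIs of the group, Ccr7 being the receptor by which dendritic cells migrate to lymph nodes, and also the highest H2-Aa and Cd74 values. Of the last 3 cells, 2 held 63 and 96 Lyz2 UMIs and fewer than 10 of H2-Aa, and 1 held 3 Cd3g, 6 Trbc2 and 2 Gata3 UMIs.

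**Figure D5:**
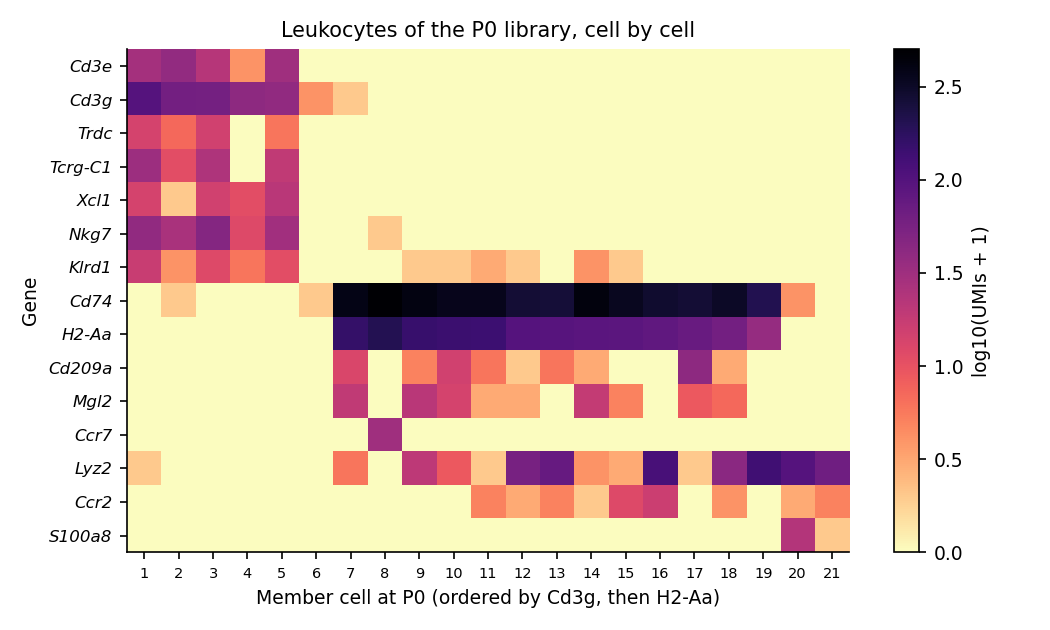
UMIs of 15 genes (rows) in each of the 21 members at P0 (columns, ordered by Cd3g and then H2-Aa), coloured by log10 of UMIs + 1. The Cd3g and H2-Aa cells form separate blocks, with 5 cells of 38 to 97 Cd3g UMIs and 13 of 35 to 199 H2-Aa UMIs.

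Group levels at P0 are sums over these 21 cells, and why they differed from the earlier libraries was not tested. Cd74 stood at 24536 CPM and H2-Aa at 7824 CPM in other leukocytes, after 4341 and 1348 CPM at E16.5 and 573 and 110 CPM at E13.5. Cd3g stood at 1672 CPM after 87.7 CPM in 5 cells at E16.5 and 0 UMIs at E13.5. Xcl1 reached 324 CPM and Trdc 213 CPM, both at 0 UMIs at E16.5. Il13, a type 2 cytokine, stood at 89.5 CPM, but 93.8% of its UMIs came from 1 cell. The Trp63 cells of P0 held 0.636 CPM of Cd3g and 1.70 CPM of H2-Aa, far under the levels in members.

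Between E13.5 and E16.5, other leukocytes had 165 of 4830 genes past the fold higher (3.42%) and 208 lower (4.31%). Lyz2 was 10.1-fold higher (9.28 to 11), Cd74 7.57-fold (6.78 to 8.47), H2-Aa 12.3-fold (9.62 to 15.8) and Ly6c2 32.5-fold (13.4 to 102). All 6 MHC class II genes looked at were higher, as were 4 of 6 monocyte and 4 of 8 macrophage genes, with median log2 ratios of 3.54 for class II and 2.08 for monocyte genes against -0.12 over all genes. Fabp4 and Cd36 led the table by bound, but 92.4% and 86.8% of their UMIs came from 1 cell. All 7 erythroid genes looked at were lower, and 8 of 13 dissociation genes were higher, with 1 lower, beside the values given for Cpa3 cells.

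Between E16.5 and P0, 46 of 2722 genes were past the fold higher at P0 (1.69%) and 54 lower (1.98%). Cd3g was 19.1-fold higher (13.4 to 27.9), Cd74 5.65-fold (5.35 to 5.98), H2-Aa 5.8-fold (5.25 to 6.42) and Mgl2, a lectin of dermal dendritic cells and macrophages, 25.1-fold (12.2 to 59.9). Of the lists, 7 of 9 T cell, 6 of 7 dendritic cell and 6 of 6 class II genes were higher. Plac8 was 3.56-fold lower (2.72 to 4.74), Ly6c2 6.08-fold lower and F13a1, a transglutaminase of monocytes and macrophages, 16.6-fold lower (6.34 to 61.7), and 3 of 6 monocyte genes were past the fold lower. Ccr2 was 2.42-fold lower, which is not past the fold.

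Against macrophages of the same library, other leukocytes had 58 of 8372 genes past the fold higher (0.693%) and 165 lower (1.97%) at E13.5, 114 of 6134 higher (1.86%) and 141 lower (2.3%) at E16.5, and 59 of 2198 higher (2.68%) and 128 lower (5.82%) at P0. The rule itself set these groups apart by C1q. Class II genes were higher at every stage, 5 of 5, 6 of 6 and 6 of 6 of those looked at. At E13.5 this rested on few cells, since 56% of H2-Aa, 67.2% of H2-Ab1 and 79.2% of H2-Eb1 UMIs came from 1 cell each. Macrophages held 0, 1 and 2 UMIs of these genes, which thus met the UMI minimum only through other leukocytes. The ratio for Cd74 was 23.6 (17.9 to 31.8), 15 (13.4 to 16.9) and 6.02 (5.65 to 6.42), and macrophage class II levels in sum were 37.0, 404 and 7228 CPM. Ccr2 was 11.5-fold higher (8.47 to 15.9) at E13.5 and 4.22-fold (3.47 to 5.14) at E16.5, and Plac8 16-fold (13 to 19.9) and 7.35-fold. Pf4 was 39.8-fold (29.4 to 55.3), 37.4-fold (29.7 to 47.6) and 1090-fold lower, the last from 2 UMIs, and 1 cell held 90.5% of the E16.5 UMIs. Macrophage list genes were lower for 9 of 11, 10 of 13 and 10 of 13. At P0, 8 of 8 T cell genes were higher, with Cd3g at 299 against 2 UMIs, and Nkg7, Cd3d and Cd3e were at 0 UMIs in macrophages.

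Members were clustered within each library without the genes of the rule, which gave 8 clusters at E13.5 and 5 at E16.5, while P0 had too few cells. At E13.5 a cluster of 21 cells, 20 of them Cpa3 cells, was mast-like, with 13 of 20 mast markers raised and 4 among its 10 leading genes. Of 8 basophil markers, 6 were raised there as well, and Mcpt8 was among the leading genes. Mean log2 ratios were 1.61 for the mast list and 1.62 for the basophil list, so the name does not set these types apart. A further 17 Cpa3 cells fell in a cluster of 24 with muscle genes among its leading genes, 17 in a cluster of 18 led by Arhgap20, Maob, Ms4a2 and Gata2, and 11 in a cluster of 25 led by haemoglobin genes. Clusters of 22 and 15 cells, led by keratin and neural genes and by endothelial genes, held 4 and 1 Cpa3 cells. Most other leukocytes of this stage fell in the clusters led by muscle, haemoglobin, keratin and neural, or endothelial genes. Another cluster of 24, with 3 Cpa3 cells, was led by BC100530 and S100a9, both from 1 cell, and had 6 of 9 monocyte markers raised. A cluster of 13 without Cpa3 cells was led by Cd74 and class II genes, with 7 of 11 dendritic and 5 of 9 monocyte markers raised. All but the mast-like cluster stay unnamed. The doublet caller called 0 of 5962 cells in this library, so it was treated as not working, and the part of doublets or free RNA in these clusters was not tested.

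At E16.5 a mast-like cluster of 14 cells, all Cpa3 cells, had 16 of 20 mast markers raised. A second cluster of 23 held 22 Cpa3 cells, and all 23 cells had at least 3 mast markers, but Fabp4 and Cd36 led it and it was left unnamed. Its only cell without Cpa3 held 110 of the 116 Fabp4 UMIs and all 33 Cd36 UMIs of the cluster. A cluster of 13 with class II genes and Cd74 in the lead, 9 of 11 dendritic markers raised and 1 Cpa3 cell was dendritic-like. Of its 13 cells, 7 held at least 3 dendritic markers. All 8 dermal fibroblast markers were raised in it too, at 7750 CPM in sum, so the cluster also carried RNA of another tissue. A cluster of 14 with Mcpt8, Trbc2, Klrd1 and Gzma among its leading genes joined the Mcpt8 cells and the lymphoid cells, and a cluster of 24 carried both monocyte and macrophage markers. Cpa3 cells thus fell in several clusters at each stage.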

How the data were processed

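Single-cell RNA sequencing of back skin gave 1 library for each of 3 stages. The authors aligned reads to mm10 and counted UMIs with Cell Ranger 2.2.0, dropped genes found in fewer than 3 cells and cells under 1750 genes, and deposited the natural log (ln) of each UMI count scaled to a cell total of 10000, with 1 added. The formula was found from the values, since all 48197283 values above 0 came back as whole UMIs within a tolerance of 0.001. The table held 19165 genes and 16235 cells with 53334740, 66239195 and 46599806 UMIs per library.

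Member cells were found by the stated rule, and UMIs were summed over a group within a library. Ratios of CPM carried exact conditional binomial intervals, levels exact Poisson intervals, and shares exact binomial (Clopper-Pearson) intervals, all at 95%, computed in Python 3.11.15 with scipy 1.17.1. Genes needed at least 30 UMIs in the groups compared, groups at least 20 cells, and the 11 genes of the rule were left out. Shares were repeated on cells thinned to 3500 UMIs, and no cell of the groups used was shallower. Members of a library with at least 50 of them were clustered in scanpy 1.11.5 with leidenalg 0.10.2 (2000 variable genes, 20 components, 10 neighbours, resolution 1). Scrublet, with the doublet rate set to 0.06, marked no cell at E13.5, which was taken as a failure of the caller, and 1.61% and 2.09% of the later libraries, with 2 Cpa3 cells and 1 other leukocyte among them, and all of these cells stayed in. The ratio and its bounds were tested on simulated data.

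The members, the 39 gene lists and the marker genes were chosen with earlier results of these data known. Named genes were drawn from the genes of the rule, from list members with at least 10 UMIs in a group, by level or ratio, and from the 10 highest and 5 lowest genes of each comparison by the interval bound nearest 1. Not every gene so eligible is named, and the text says where a cell or cut-off was chosen after its values were seen. Of the listed genes, 413 were in the table, and the remaining ones were not analysed here. Gene positions came from GENCODE vM21 on GRCm38, the build also called mm10, in which all 413 were matched by symbol, and sequences from RefSeq. Alternatives changed the rule, the Cpa3 threshold, the UMI minimum, the weight of each cell, the doublets and the cluster resolution.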

Additional observations from a re-analysis of the deposited data

Results flagged for a closer look

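Cells that the rule left out also carried Cpa3 at a level that Trp63 cells rarely reached. At E13.5, 82 of 5800 cells outside the rule (1.41%) held 5 or more Cpa3 UMIs, while 0 of 150 Trp63 cells did. Of the 82, 51 had fewer than 3 of the 6 leukocyte genes and 28 were C1q macrophages. Their median depth was 5582 UMIs, and 45 of them held at least 3 mast markers, with Cma1 at 677 CPM and Hdc at 158 CPM, under the 1852 and 552 CPM of the 58 members with as much Cpa3. In the 51 cells Cma1 stood at 982 CPM and in the 28 macrophages at 275 CPM.

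At E16.5, 14 of 5120 cells outside the rule (0.273%) held 5 or more Cpa3 UMIs, against 1 of 1039 Trp63 cells (0.0962%). Of the 14, 9 had fewer than 3 of the leukocyte genes, 12 held at least 3 mast markers, and the median was 8.5 markers, with Cma1 at 12658 CPM and Hdc at 3530 CPM, near the 14515 and 4918 CPM of the 42 members. Cells with this pattern were thus missed by the rule at both stages, and the share of Cpa3 cells given in the report is a share under that rule. No P0 cell outside the rule held 5 or more Cpa3 UMIs.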

How the results depend on the processing

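Of 118 alternatives over 32 results, 85 left the value within the limits set for it and 33 moved it; these are counts, shares and levels, which have no direction. Among single genes compared between the stages of Cpa3 cells, Hbb-bs went from a ratio of 1.08 to 0.118 with Cpa3 at 5 UMIs or more, and Ccl9 from 1.90 to 0.850 without the Mcpt8 cells. The number of members depended on the rule. At E13.5 the 162 members became 263 with at least 2 of the 6 leukocyte genes, 91 with at least 4, 121 with no C1q gene, 206 with at most 2, 82 with at least 2500 genes per cell and 114 with each cell thinned to 3500 UMIs. At E16.5 the 88 became 144 with at least 2 of the 6 genes and 47 with at least 2500 genes, and at P0 the 21 became 7 with at least 2500 genes. The share of Cpa3 cells among members at E13.5 fell from 45.1% to 35.8% with Cpa3 at 5 UMIs or more, and it was 0 at P0 under all alternatives run.

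Counts of genes past the fold followed the UMI minimum. With at least 100 UMIs, Cpa3 cells against other leukocytes gave 24 genes higher and 29 lower at E13.5 and 53 and 80 at E16.5, and with at least 10 UMIs 154 lower at E13.5 and 192 higher at E16.5. With the minimum of 100 UMIs, chosen after seeing the data, Cpa3 cells against macrophages gave 48 higher at E13.5 and 80 higher and 254 lower at E16.5, other leukocytes against macrophages gave 23, 53 and 27 higher from E13.5 to P0 and 67 lower at P0, and the stages of Cpa3 cells gave 51 higher and 45 lower. Fewer genes were looked at with that minimum. With each cell given the same weight, mast markers in Cpa3 cells summed to 3598 and 27481 CPM, dendritic markers in other leukocytes to 7659 and 51840 CPM at the last 2 stages, and T cell markers to 540 and 4266 CPM, and the cause of these shifts was not tested. At resolution 0.5 there were 5 clusters at E13.5 and 3 at E16.5. Leaving out doublets was not run at E13.5, where none were called. No paired analysis was possible because each stage had 1 library and no test was run. The 21 members and 178802 UMIs at P0 limit what can be seen there.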
